A study of Mus musculus with 12 samples.

Results

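DNA repair and checkpoint genes were followed in cultured mouse prostate stem cells grown as spheroids, which are balls of cells, or as an adherent monolayer. The group held 33 genes chosen by name for their roles in repair or in the checkpoints that halt a damaged cell, out of 19031 genes named on the array. The rule goes by gene symbol alone. The cells came from prostate tissue of the C57Bl/6 strain, and 3 cultures were profiled: a spheroid culture of mouse 1 and adherent cultures of mouse 2 and of mouse 1. The labels give no further treatment, allele, sex or age, and the series compared spheroid with adherent stem cell conditions. Each culture had 3 replicate arrays and 1 array of their pooled RNA, all read as biotin-labelled RNA on Illumina bead arrays. Only 1 spheroid culture was measured. The labels do not say whether replicates were separate cultures, and p-values therefore cover no more than the spread of these samples, possibly a technical one.

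DNA damage is handled by separate routes. Homologous recombination copies an intact sister strand to mend a double-strand break and works mainly in cells that are copying or have copied their DNA, whereas end joining ligates broken ends at any time. The Fanconi pathway removes links between the strands, mismatch repair corrects copying errors, base excision replaces single damaged bases, and the checkpoint kinases stop the cell cycle while repair runs. Many genes of recombination, replication and mismatch repair are known to be transcribed most strongly as cells enter the phase of DNA synthesis, in part through E2F factors.

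Of the 33 genes, 32 had a probe that the annotation names and 28 could be tested. Xrcc2, which acts in homologous recombination, has no named probe here. Fancb and Fancg, members of the Fanconi core complex, Neil3, a glycosylase, and Xrcc5, the larger Ku subunit, had probes that were not detected on all 3 replicate arrays of any culture. Signals below are normalized log2 values after background subtraction with an offset of 16, a scale that compresses differences of dim probes and cannot go below 4. A probe's level depends on its own sequence, so levels were compared between cultures and not between genes. A gene was called when limma gave a Benjamini-Hochberg adjusted p under 0.05 over all 10112 genes tested and the fold was at least 2.

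Single arrays detected 43.12% to 49.15% of the probes. Correlations over all genes were 0.989 to 0.991 among spheroid arrays, 0.975 to 0.994 among adherent mouse 2 arrays and 0.993 among adherent mouse 1 arrays, against 0.843 to 0.86 between spheroid and adherent arrays. Replicate 1 of adherent mouse 2 stood apart from the other arrays of its culture, and those other arrays carry the same column name in the deposited table, so they are called a and b. Over the tested repair genes, replicate 1 was the highest of its culture for 12 genes and the lowest for 10, with a median difference of -0.02 from the mean of a and b. Over all genes it was the highest for 44.8% and the lowest for 39%. All 8 markers of basal epithelium were detected on every replicate array.

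Spheroid cells had lower signals of many repair genes. Of the 28 tested genes, 15 were called lower in spheroid cells than in the average of both adherent cultures and 0 were called higher, while 13.4% of all genes tested were called lower and 13.1% higher. The median log2 difference of the 28 genes, spheroid minus adherent, was -1.15, beside -0.06 over all genes. At an adjusted p under 0.05 alone, 22 were lower, beside 34.4% of all genes, and 0 were higher, beside 29.3%. Some of the 22 entered the test only through detection in adherent cells, which favours lower values, so this count lends no support by itself. An unadjusted p under 0.05 gave the same counts, and 66.7% of all genes passed that level in either direction. The steepest were Ung, a uracil glycosylase, Rad54l, a recombination motor, and Blm, a helicase, at 9.77-fold, 7.50-fold and 6.22-fold lower. Bard1, Lig4 and Atr were among the genes that differed little.

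The 28 genes averaged 5.95 ± 0.07 log2 on spheroid arrays, 7.24 ± 0.05 on adherent mouse 2 arrays and 7.27 ± 0.02 on adherent mouse 1 arrays (SD, n = 3 each). Between 21 and 22 of them were detected on each spheroid array and between 27 and 28 on each adherent array. For 20 genes every spheroid array lay below all 6 adherent arrays, an arrangement found in 28.6% of all genes tested, and for 0 genes every spheroid array lay above them, beside 25% of all genes. Of these 20 genes, 7 entered the test only through detection in adherent cells, which favours this arrangement. Among the 17 detected on all 9 replicate arrays it was found in 13 (76.5%), beside 32.7% of the genes detected that widely. In RNA from whole cultures, fewer cells that express a gene and less of its RNA per cell cannot be told apart.

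**Figure D1:**
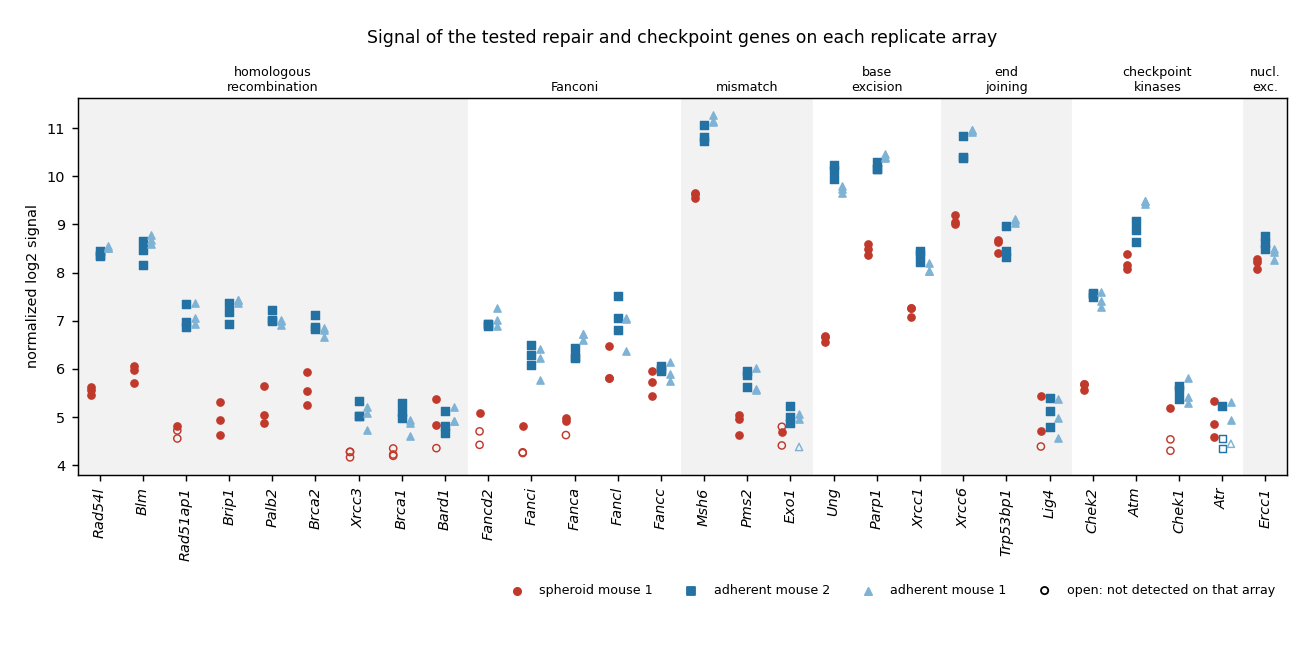
Normalized log2 signal (vertical axis) of the 28 tested repair and checkpoint genes, grouped by role, on the 3 replicate arrays of spheroid mouse 1 (red circles), adherent mouse 2 (dark squares) and adherent mouse 1 (pale triangles). Open symbols mark arrays on which the probe was not detected. For 20 genes all spheroid points lie below all adherent points.

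Entry to the test depended on detection. Of the 28 genes, 17 were detected on all 9 replicate arrays, and 11 of these (64.7%) were called lower, beside 14.5% of the 7715 genes detected that widely. Another 10 entered only because they were detected in adherent cells, 4 of them were called, and these counts lend the 15 no support since entry by that route favours genes that are higher in adherent cells. Atr entered through spheroid cells only. Of the 13 genes that were not called, 9 averaged under 6 log2 in adherent cells, near the bottom of the scale, and 0 of the 15 called genes were that dim. The part that dimness played in the missing calls was not tested. Without background subtraction 6 genes were called lower, and 7 with the authors' normalized values. With arrays scaled by their medians in place of quantiles, 2330 genes were called lower and 874 higher over the whole array, against 1357 and 1327 in the reported fit, and 17 of the repair genes were lower.

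**Figure D2:**
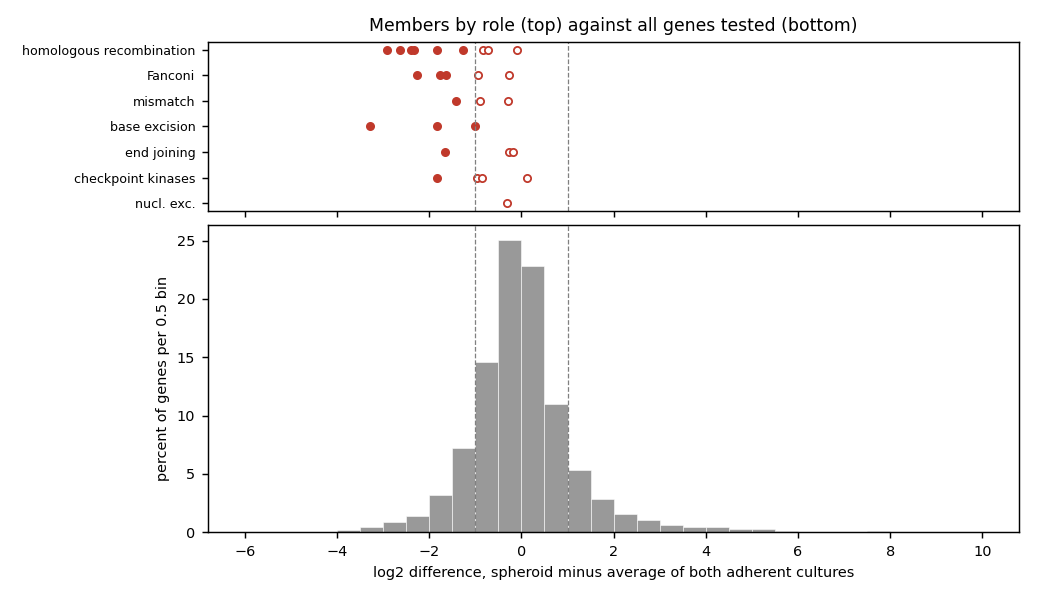
Log2 difference, spheroid minus the average of both adherent cultures (horizontal axis), of each tested repair gene by role (top, filled where called) and of all 10112 genes tested as a percentage of genes per bin (bottom). Dashed lines mark a 2-fold difference; the repair genes run from -3.29 to 0.12, and their median of -1.15 lies left of the bulk of all genes.

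Promoter sequences are shown for 7 of the tested genes. Those of Brca2, Msh6, Xrcc6 and Chek2 are the called genes whose window holds an E2F word, Bard1 is the single uncalled gene that has one, and Ung and Rad54l had the largest differences but lack one. The windows come from RefSeq (build GRCm38.p6), span 250 bases before to 50 bases after the annotated start and read 5′ to 3′ along the gene's strand. Capitals mark E2F words, which are TTTCCCGC or its reverse complement GCGGGAAA, and CCAAT words, or their reverse complement ATTGG. Coordinates are chr5:114130185-114130484 (plus strand) for Ung, chr4:116123641-116123940 (minus strand) for Rad54l, chr5:110839733-110840032 (plus strand) for Chek2, chr15:82016119-82016418 (plus strand) for Xrcc6, chr17:87974800-87975099 (plus strand) for Msh6, chr5:150522371-150522670 (plus strand) for Brca2 and chr1:71102923-71103222 (minus strand) for Bard1.
Ung: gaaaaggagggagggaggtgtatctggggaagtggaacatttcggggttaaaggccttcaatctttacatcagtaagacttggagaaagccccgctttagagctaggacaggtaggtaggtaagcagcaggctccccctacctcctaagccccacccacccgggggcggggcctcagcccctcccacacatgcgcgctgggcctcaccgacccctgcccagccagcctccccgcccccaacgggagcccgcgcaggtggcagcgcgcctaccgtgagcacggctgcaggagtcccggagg
Rad54l: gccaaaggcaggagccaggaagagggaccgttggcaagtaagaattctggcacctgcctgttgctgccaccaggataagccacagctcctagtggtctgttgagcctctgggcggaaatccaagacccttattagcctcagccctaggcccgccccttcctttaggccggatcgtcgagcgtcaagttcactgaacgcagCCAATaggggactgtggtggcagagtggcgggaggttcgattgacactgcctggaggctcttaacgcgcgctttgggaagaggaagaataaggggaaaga
Chek2: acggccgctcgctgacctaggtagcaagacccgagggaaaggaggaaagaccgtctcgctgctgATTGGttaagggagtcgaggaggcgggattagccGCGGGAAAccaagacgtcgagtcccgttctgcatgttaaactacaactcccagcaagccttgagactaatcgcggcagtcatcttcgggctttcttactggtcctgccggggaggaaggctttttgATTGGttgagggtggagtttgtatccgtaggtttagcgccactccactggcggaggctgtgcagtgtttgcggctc
Xrcc6: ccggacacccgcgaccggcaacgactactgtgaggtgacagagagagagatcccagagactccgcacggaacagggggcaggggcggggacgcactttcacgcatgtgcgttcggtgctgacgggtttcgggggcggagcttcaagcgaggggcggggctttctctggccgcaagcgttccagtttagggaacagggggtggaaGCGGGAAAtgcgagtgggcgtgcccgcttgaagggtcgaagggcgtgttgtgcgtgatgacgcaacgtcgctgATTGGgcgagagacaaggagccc
Msh6: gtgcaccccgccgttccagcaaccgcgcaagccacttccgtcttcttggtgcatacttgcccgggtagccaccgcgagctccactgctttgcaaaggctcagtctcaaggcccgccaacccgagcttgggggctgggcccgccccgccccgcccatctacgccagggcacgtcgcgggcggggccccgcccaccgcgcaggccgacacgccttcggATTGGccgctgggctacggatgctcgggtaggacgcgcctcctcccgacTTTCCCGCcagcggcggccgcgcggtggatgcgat
Brca2: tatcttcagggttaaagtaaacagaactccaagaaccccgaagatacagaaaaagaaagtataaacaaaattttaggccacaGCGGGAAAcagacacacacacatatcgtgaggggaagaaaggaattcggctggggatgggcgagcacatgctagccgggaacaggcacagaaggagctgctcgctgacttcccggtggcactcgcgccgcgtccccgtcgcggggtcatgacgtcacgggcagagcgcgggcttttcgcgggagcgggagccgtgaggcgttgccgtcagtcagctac
Bard1: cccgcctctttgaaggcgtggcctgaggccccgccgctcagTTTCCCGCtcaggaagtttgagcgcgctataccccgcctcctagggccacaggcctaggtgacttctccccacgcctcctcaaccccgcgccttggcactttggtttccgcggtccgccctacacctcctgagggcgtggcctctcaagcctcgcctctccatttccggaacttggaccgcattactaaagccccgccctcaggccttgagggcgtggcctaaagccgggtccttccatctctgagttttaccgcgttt

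The E2F search used the words TTTCCCGC, TTTCGCGC, TTTGGCGC and TTTGCCGC on both strands. One of them was found in 4 of the 14 called genes with a window (28.6%), in 1 of the 12 uncalled genes with one (8.33%), in 4.31% of the 8220 tested genes with one and in 2.32% of all 27025 promoters of that length. All 5 matches were TTTCCCGC. Counted from the annotated start as 0, they began at -168 in Brca2, -152 in Chek2, -46 in Xrcc6, 15 in Msh6 and -209 in Bard1. CCAAT, the letters bound by the factor NF-Y, occurred in 10 of the 14 called genes (71.4%), 5 of the 12 uncalled genes (41.7%), 39.1% of the tested genes and 37.9% of all promoters.

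The word TTTGAA, named CHR for a cell cycle element, was in 0 of the called and 1 of the uncalled genes, beside 12% of the tested genes and 18.1% of all promoters. GGGCGG, the GC box, was in 10 called and 7 uncalled genes, beside 64.4% of the tested genes and 35.9% of all promoters. E2F and CCAAT words overlapped in 0 places in these windows. A match is a run of letters and was not tested as a binding site, and no match says only that these letters are not in this window. Fancd2, Exo1 and Xrcc2 had no window here.

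**Figure D3:**
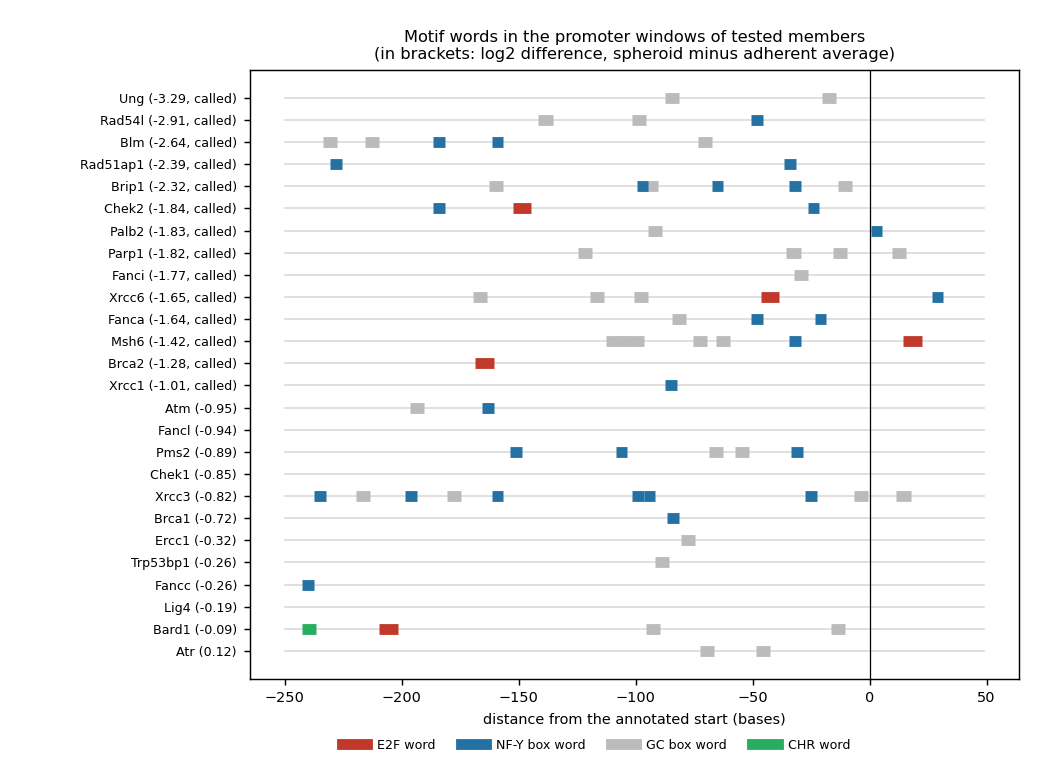
Positions of the E2F, NF-Y (CCAAT), GC box and CHR words (coloured bars) relative to the annotated start in bases (horizontal axis) for the tested genes that have a window, ordered by their log2 difference from Ung at -3.29 (top) to Atr at 0.12 (bottom). E2F words are present in 4 called genes and in Bard1.

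Among the homologous recombination genes, 6 of 9 tested were called lower in spheroid cells, beside 13.4% of all genes tested. The median log2 difference of the 9 was -1.83. Of the 6 called, Rad51ap1 entered the test only through detection in adherent cells, which favours a lower call. Rad54l, whose product is a motor that moves along DNA during strand exchange, had 5.62, 5.56 and 5.46 log2 on the spheroid arrays, against 8.35, 8.45 and 8.36 on the adherent mouse 2 arrays and 8.51, 8.54 and 8.51 on the adherent mouse 1 arrays. The groups did not overlap, and its difference was -2.91 ± 0.11 (SE; limma, adjusted p = 4.61e-11). Brca2, which prepares resected ends for strand exchange, had 5.26, 5.54 and 5.95 on the spheroid arrays, against 6.83, 7.13 and 6.88 in adherent mouse 2 and 6.65, 6.81 and 6.86 in adherent mouse 1. All spheroid values were again below all adherent values, with a difference of -1.28 ± 0.16 (limma, adjusted p = 1.29e-05), although the spheroid arrays spread over 0.34 log2 (SD).

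The other called recombination genes lay between these. Blm, the helicase that resolves recombination intermediates, differed by -2.64 ± 0.14, and Rad51ap1, which promotes invasion of the sister strand, by -2.39 ± 0.16. Brip1, a helicase that binds Brca1, differed by -2.32 ± 0.17, and Palb2, the bridge between Brca1 and Brca2, by -1.83 ± 0.17. Rad51ap1 was detected on 1 of 3 spheroid arrays, so its spheroid level sat near background.

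The other 3 recombination genes were not called. Brca1, a ubiquitin ligase that steers breaks towards recombination, was not detected on any spheroid array (4.35, 4.20 and 4.22 log2), against 5.11, 4.99 and 5.30 in adherent mouse 2 and 4.87, 4.61 and 4.95 in adherent mouse 1. Brca1 differed by -0.72 ± 0.16 as measured (limma, adjusted p = 0.00121), under the 2-fold needed for a call, and was at least 1.42-fold lower. For a gene undetected throughout a culture the fold is a bound, for which the dim value on each array was raised, where needed, to the weakest signal that counted as detected there. Such a bound leaves the full size of the difference unknown. Xrcc3, which also acts in recombination, was also undetected in spheroid cells. Its measured difference was -0.82 ± 0.16 (limma, adjusted p = 0.000591), and it was at least 1.51-fold lower. Brca1 and Xrcc3 entered the test only through detection in adherent cells, a route that favours lower values in spheroid cells. Bard1, the partner of Brca1, had 4.84, 5.37 and 4.36 log2 on the spheroid arrays, against 4.81, 5.13 and 4.68 in adherent mouse 2 and 4.92, 4.92 and 5.21 in adherent mouse 1. Its groups overlapped, with a difference of -0.09 ± 0.21 (limma, adjusted p = 0.726).

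Of the 5 tested Fanconi genes, 3 were called lower in spheroid cells, beside 13.4% of all genes tested, with a median of -1.64 over the 5. All 3 entered the test only through detection in adherent cells, so their count lends no support, and Fancc and Fancl, the Fanconi genes detected on all 9 replicate arrays, were not called. Fancd2 and Fanci form the clamp that is ubiquitinated at a strand link. Fancd2 had 5.08, 4.70 and 4.42 log2 on the spheroid arrays, detected on 1 of them, against 6.94, 6.94 and 6.90 in adherent mouse 2 and 7.02, 6.90 and 7.26 in adherent mouse 1. Its difference was -2.26 ± 0.16 (limma, adjusted p = 4.12e-08), taken against a spheroid level that was not above background on the other 2 arrays. Fanci differed by -1.77 ± 0.19 and was likewise detected on 1 spheroid array.

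Fanca, a scaffold of the core complex that ubiquitinates the clamp, had 4.99, 4.63 and 4.93 log2 on the spheroid arrays, against 6.26, 6.23 and 6.44 in adherent mouse 2 and 6.72, 6.72 and 6.59 in adherent mouse 1. The spheroid values were the lowest and the adherent cultures were separate from each other, and the spheroid difference was -1.64 ± 0.14 (limma, adjusted p = 3.03e-07). Fancl, the ubiquitin ligase of that complex, differed by -0.94 ± 0.22, short of 2-fold, and 1 spheroid array (6.47) lay above 1 adherent mouse 1 array (6.36). Fancc, another core member, differed by -0.26 ± 0.16 (limma, adjusted p = 0.171). A further Fancc probe, also detected on every replicate array, measured -0.50 (limma, adjusted p = 0.017 over all passing probes) and was not called. For that probe the adherent cultures differed by 0.68, mouse 2 minus mouse 1, beside 0.07 for the reported one.

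In mismatch repair, Msh6, which recognises mispaired bases, was called lower. It had 9.56, 9.64 and 9.65 log2 on the spheroid arrays, against 11.07, 10.81 and 10.74 in adherent mouse 2 and 11.12, 11.28 and 11.15 in adherent mouse 1. The gap between the groups exceeded the spread within any culture, and the difference was -1.42 ± 0.09 (limma, adjusted p = 6.59e-09). Pms2, which nicks the strand to be repaired, was lower on every spheroid array but short of 2-fold, at -0.89 ± 0.17 (limma, adjusted p = 0.00042). Exo1, the exonuclease that removes the faulty stretch and also resects breaks, differed by -0.29 ± 0.19 (limma, adjusted p = 0.202) and was detected on only 1 spheroid array.

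All 3 tested base excision genes were called lower in spheroid cells, beside 13.4% of all genes tested. Ung, which cuts uracil out of DNA, had 6.67, 6.66 and 6.55 log2 on the spheroid arrays, against 9.95, 10.12 and 10.23 in adherent mouse 2 and 9.66, 9.74 and 9.80 in adherent mouse 1. In the deposited intensities, before any correction, this was 201, 201 and 209 against 1157, 1601 and 1601 in adherent mouse 2 and 898, 1003 and 1008 in adherent mouse 1. The difference of -3.29 ± 0.09 (limma, adjusted p = 5.16e-12) was the largest of the 28 genes.

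Parp1, which senses nicked strands and signals to repair factors, differed by -1.82 ± 0.08 (limma, adjusted p = 3.71e-10). Xrcc1, the scaffold that gathers the enzymes of single-strand break repair, had 7.09, 7.26 and 7.27 log2 on the spheroid arrays, against 8.23, 8.39 and 8.44 in adherent mouse 2 and 8.02, 8.04 and 8.20 in adherent mouse 1. The groups were separate and the difference was -1.01 ± 0.11 (limma, adjusted p = 2.02e-06). At 2.02-fold Xrcc1 stood at the edge of the fold threshold, and it lost the call in 7 of 19 alternative settings.

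Of the 3 tested end joining genes, 1 was called lower against the adherent average, beside 13.4% of all genes tested. Xrcc6, the smaller subunit of the Ku ring that binds broken ends, had 9.02, 9.05 and 9.19 log2 on the spheroid arrays, against 10.83, 10.37 and 10.41 in adherent mouse 2 and 10.96, 10.92 and 10.96 in adherent mouse 1. It was called lower, at -1.65 ± 0.10 (limma, adjusted p = 7.81e-09), with no overlap. Trp53bp1, which shields ends from resection and so favours joining, had 8.41, 8.64 and 8.67 on the spheroid arrays, against 8.97, 8.33 and 8.46 in adherent mouse 2 and 9.03, 9.09 and 9.12 in adherent mouse 1. The spheroid values lay inside the range of adherent mouse 2 and below adherent mouse 1, with a difference of -0.26 ± 0.13 (limma, adjusted p = 0.0977). A further Trp53bp1 probe measured -0.95 against the adherent average and was called lower against adherent mouse 2 (-1.08), so the result depends on the probe. Lig4, the ligase that seals the joined ends, differed by -0.19 ± 0.25 (limma, adjusted p = 0.524). It was close to background, with means of 4.85 log2 on spheroid arrays and 5.04 in adherent cells, so a small difference there says little.

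Of the 4 checkpoint kinases, Chek2 alone was called lower against the adherent average, beside 13.4% of all genes tested. Chek2, activated by Atm after a break, had 5.56, 5.70 and 5.69 log2 on the spheroid arrays, against 7.49, 7.59 and 7.56 in adherent mouse 2 and 7.29, 7.60 and 7.42 in adherent mouse 1. Its groups were far apart, at -1.84 ± 0.12 (limma, adjusted p = 2.09e-08). Chek1, activated by Atr at stalled replication forks, was detected on 1 spheroid array and differed by -0.85 ± 0.20 (limma, adjusted p = 0.00256).

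Atm, the kinase that responds to breaks, had 8.09, 8.15 and 8.39 log2 on the spheroid arrays, against 9.07, 8.89 and 8.63 in adherent mouse 2 and 9.48, 9.49 and 9.42 in adherent mouse 1. The 3 cultures were separate, in that order, and the spheroid difference of -0.95 ± 0.11 (limma, adjusted p = 4.94e-06) was just short of 2-fold. Atr, which senses exposed single strands, had 4.59, 5.33 and 4.86 on the spheroid arrays, against 5.22, 4.35 and 4.55 in adherent mouse 2 and 4.93, 4.45 and 5.32 in adherent mouse 1. Its values overlapped throughout and were close to background (0.12 ± 0.25; limma, adjusted p = 0.681). Ercc1, a subunit of the nuclease that cuts beside bulky lesions and strand links, differed by -0.32 ± 0.10 (limma, adjusted p = 0.0154).

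Each adherent culture was then set against the same spheroid arrays, so these comparisons share their spheroid samples. Against adherent mouse 2, 16 genes were called lower in spheroid cells, beside 13.6% of all genes tested. Against adherent mouse 1, the closest match as both cultures are labelled mouse 1, 15 were called lower, beside 14.1% of all genes. In both comparisons 14 genes were called lower, beside 10.9% of all genes. Some of these genes entered the test only through detection in adherent cells, which favours a lower call. Without background subtraction the counts were 6 against adherent mouse 2, where 597 of all genes were lower, and 6 against adherent mouse 1, where 630 were. With the authors' normalized values they were 7 against adherent mouse 2, beside 690 of all genes, and 8 against adherent mouse 1, beside 743.

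The genes called against a single adherent culture were few. Xrcc1 was called against adherent mouse 2 (-1.15 ± 0.12) and measured -0.88 ± 0.12 against adherent mouse 1. Fancl was called against adherent mouse 2 (-1.09 ± 0.25) and measured -0.79 ± 0.25 against adherent mouse 1. Atm measured -0.65 ± 0.13 against adherent mouse 2 and was called against adherent mouse 1 (-1.26 ± 0.13). Its further passing probes were not called against adherent mouse 1 (-0.83 and -0.96). The latter, which passed only through detection in adherent cells, was called against adherent mouse 2 (-1.17). The further passing probes of Fancl were not called against adherent mouse 2 (-0.75, -0.26 and -0.86). For Atm and Fancl these calls therefore depend on the probe. The adherent cultures differed by 0.27 for Xrcc1 (limma, adjusted p = 0.182) and by 0.31 for Fancl (limma, adjusted p = 0.468), mouse 2 minus mouse 1.

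**Figure D4:**
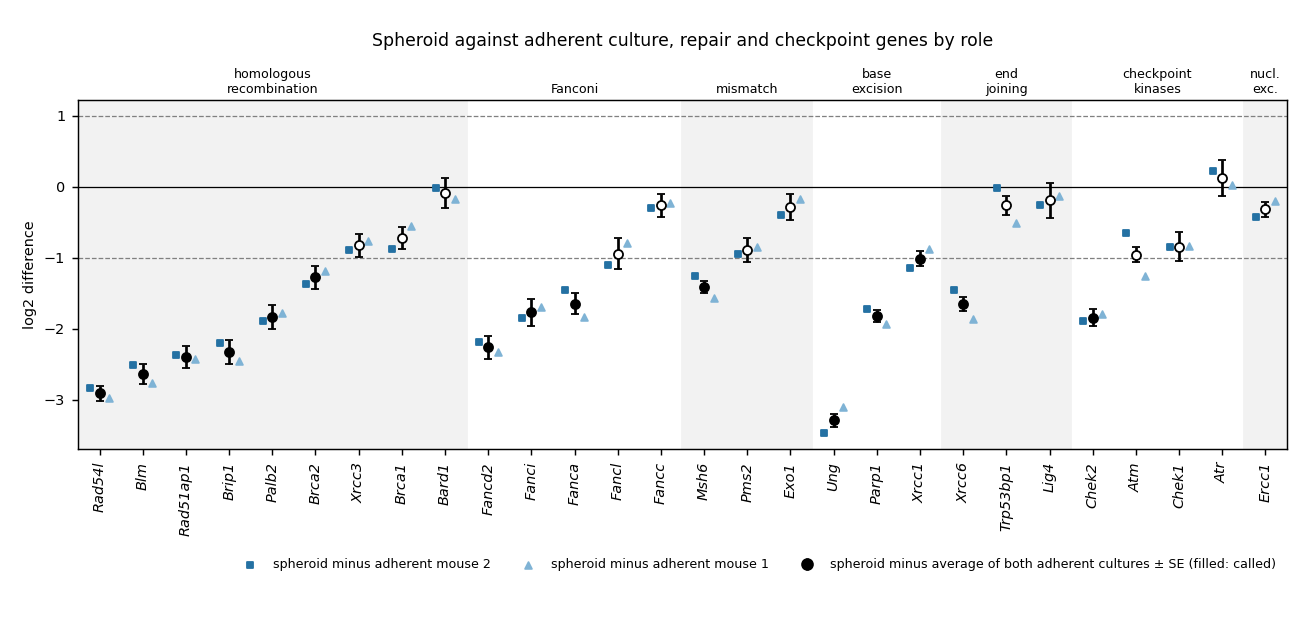
Log2 difference, spheroid minus adherent, for each tested gene by role: against adherent mouse 2 (dark squares), against adherent mouse 1 (pale triangles) and against the average of both (circles with SE, filled where called). Dashed lines mark a 2-fold difference; 15 filled circles lie below the lower one and Atr, at 0.12, is the only circle above 0.

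Between the cultures grown the same way, adherent mouse 2 minus adherent mouse 1, 0 of the 28 genes were called, beside 2.46% of all genes (1.05% lower and 1.41% higher). The median difference was 0.04 and the values ran from -0.60 to 0.37. By limma's unadjusted p under 0.05, 6 genes were lower in adherent mouse 2 and 1 was higher, while 28.2% of all genes passed that level in either direction. At an adjusted p under 0.05 alone, 3 genes were lower and 1 was higher, beside 6.92% and 6.43% of all genes. At a fold threshold of 1.5, Atm would be called lower, as would 391 of all genes, with 401 higher.

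By the reported probes Atm differed most, at -0.60 ± 0.13 (limma, adjusted p = 0.00842), and all adherent mouse 2 arrays lay below all adherent mouse 1 arrays. Trp53bp1 differed by -0.50 ± 0.15 (limma, adjusted p = 0.0487) and Xrcc6 by -0.41 ± 0.12 (limma, adjusted p = 0.0367). In both, replicate 1 of adherent mouse 2 was the array nearest to adherent mouse 1. Ung was higher in adherent mouse 2, by 0.37 ± 0.11 (limma, adjusted p = 0.0419). The further probes of these genes gave other values for this difference. They were -0.39 and 0.21 for Atm, 0.26 for Trp53bp1, 0.18 and -0.13 for Xrcc6, and 0.17 and -0.41 for Ung, and 0 of these 7 were called.

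**Figure D5:**
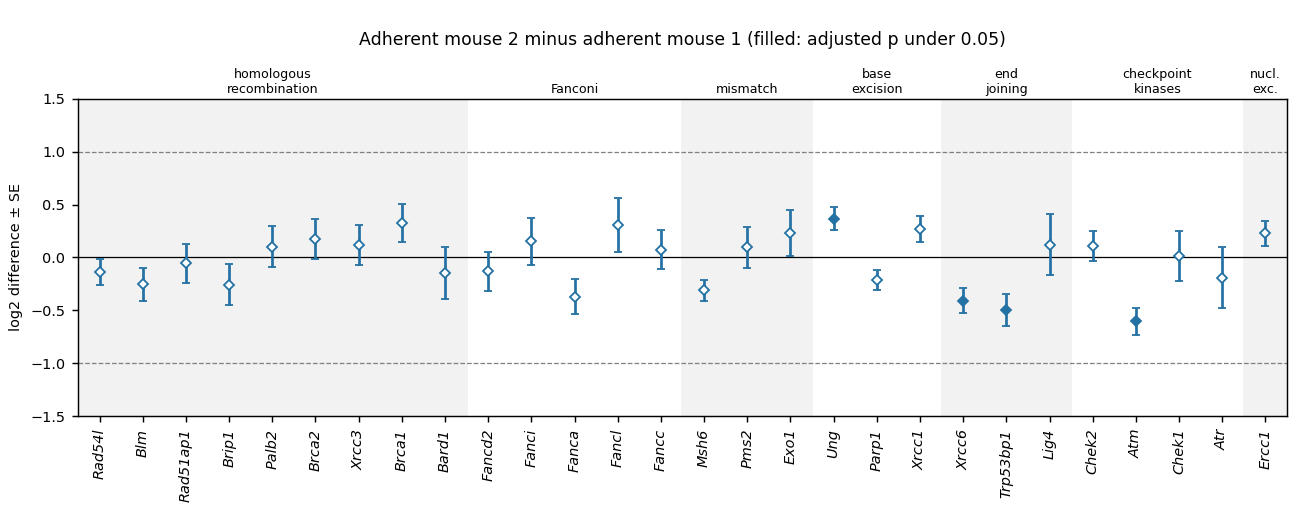
Log2 difference, adherent mouse 2 minus adherent mouse 1, with SE for each tested gene by role; filled diamonds have an adjusted p under 0.05. All points lie within the dashed 2-fold lines, from -0.60 for Atm to 0.37 for Ung.

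Several genes had more than 1 probe that passed detection. There were 19 such further probes in 13 genes. Of the 12 belonging to called genes, 11 were called lower as well, 1 was not and 0 went the opposite way. Among the 11, the further probes of Brca2, Rad51ap1 and Fancd2 and 1 of Ung passed only through detection in adherent cells. That route favours a lower call, so these probes lend no support. The share called over all passing probes is not given here. Blm's further probe measured -3.08, that of Rad51ap1 -2.29 and those of Xrcc6 -1.69 and -1.51. The exception was a Ung probe at -0.38, beside another at -2.04 and the reported one at -3.29. The probe at -0.38 averaged 4.46 log2 on spheroid arrays, 4.64 in adherent mouse 2 and 5.05 in adherent mouse 1, near background throughout. The probe at -2.04 was undetected on every spheroid array, at 4.33 log2 on a scale that ends at 4. Differences of such dim probes are compressed, so these values do not settle the size of the Ung difference. Of the 7 further probes of uncalled genes, 1 of Atm was called lower at -1.07. This Atm probe was detected on 1 spheroid array and passed only through detection in adherent cells, so it lends no support either. The further probe of Trp53bp1 measured -0.95 without being called against the adherent average.

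The pooled RNA, hybridised once per culture and kept out of the fit, gave a further look at the same material with no test. In the pools 26 of the 28 genes had the sign of the replicate comparison, and 18 were at least 2-fold lower in the spheroid pool, beside 13.8% of all genes. These 18 included all 15 called genes. The pool difference was -3.45 for Ung, -2.71 for Rad54l, -1.40 for Msh6 and -1.11 for Xrcc1. Lig4 (0.23) and Atr (-0.06) changed sign in the pools.

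A wider list of 102 repair and checkpoint genes outside the 33, of which 76 were tested, was counted beside them. Of the 76, 20 were called lower in spheroid cells (26.3%, beside 13.4% of all genes) and 2 were called higher, with a median of -0.55. These counts are not split by route of entry and lend no support by themselves. Cdc25c and Rad18, among the 20, entered only through detection in adherent cells, which favours a lower call. Among other recombination genes 2 of 12 were lower (16.7%, near the share of all genes). Both were subunits of the single-strand binding complex: Rpa2 at -3.27 ± 0.19 and Rpa3 at -1.22 ± 0.11. Among other Fanconi genes 2 of 7 were lower, which were Usp1, the enzyme that removes ubiquitin from the clamp (-1.71 ± 0.16), and Fancm, a translocase that finds stalled forks (-1.20 ± 0.17).

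Of the other base excision genes 5 of 14 were lower, led by Fen1, the flap nuclease (-2.92 ± 0.10), the replicative ligase Lig1 (-2.40 ± 0.16) and the abasic site nuclease Apex1 (-1.79 ± 0.13). Among other checkpoint genes 9 of 16 were lower and 1 was higher. The largest were Clspn, the adaptor that lets Atr activate Chek1 (-3.25 ± 0.18), Cdc25c, a phosphatase that starts mitosis and was undetected in spheroid cells (at least 7.81-fold lower), and Timeless, which protects replication forks (-2.76 ± 0.18). Cdc25b, a related phosphatase, was the higher one at 1.35 ± 0.17 and is named after its value was seen.

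Nucleotide excision had 1 lower and 1 higher gene among 11 (9.09% lower), beside 13.4% of all genes lower and 13.1% higher. They were Ercc8, which acts in repair of transcribed strands, at -1.03 ± 0.19, and Ercc2, a helicase of the factor TFIIH, at 2.46 ± 0.12. Ercc2 had 9.25 log2 on average on the spheroid arrays, against 6.79 in adherent mouse 2 and 6.80 in adherent mouse 1. Of the 7 translesion genes 1 was lower (14.3%, near the share of all genes). It was the ubiquitin ligase Rad18, which was undetected in spheroid cells (at least 2.31-fold lower) and entered only through adherent cells. The differences of the 2 other mismatch genes tested ran from -0.88 to -0.09 and those of the 7 other end joining genes from -0.86 to 0.62, short of a call. Between the adherent cultures 1 of the 76 was called, Mus81, a nuclease for branched DNA, at -1.02, also named after its value was seen.

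Other marker lists differed along with the repair genes. Of 10 tested proliferation markers 9 were called lower in spheroid cells, among them Tk1, a kinase of thymidine salvage (-3.71 ± 0.12), and Cdk1, the mitotic kinase (-3.39 ± 0.11). Their mean was 6.82 ± 0.06 log2 on spheroid arrays, 9.42 ± 0.14 on those of adherent mouse 2 and 9.38 ± 0.06 on those of adherent mouse 1 (SD, n = 3 each). Among 9 squamous differentiation markers 7 were higher and 1 was lower in spheroid cells, with means of 10.8 ± 0.03 log2 on spheroid arrays, 8.81 ± 0.10 in adherent mouse 2 and 8.03 ± 0.13 in adherent mouse 1. Of 11 fibroblast and smooth muscle markers 4 were tested and 2 were lower, Vim (-5.35 ± 0.17) and Acta2 (-4.00 ± 0.08). The means of those 4 were 6.08 to 6.34 log2 on spheroid arrays, 8.31 to 8.58 in adherent mouse 2 and 8.64 to 8.79 in adherent mouse 1. Myh11, Cnn1, Col1a1, Col3a1, Pdgfra, Pdgfrb and Dcn did not pass detection in any culture. Of 9 leukocyte markers 3 were tested and 1 was higher in spheroid cells, Cd52, undetected in adherent cells (at least 2.23-fold higher), while the defining marker Ptprc did not pass detection. The 3 endothelial markers tested ran from -0.53 to -0.13, and of 4 luminal markers Krt19 was higher (5.78 ± 0.15) and Krt18 lower (-1.42 ± 0.09). For Krt19 the difference was 3.82 against adherent mouse 2 and 7.75 against adherent mouse 1, and the adherent cultures differed by 3.93. Of the 8 basal markers Krt15 was higher (2.73 ± 0.09). The intensity at the brightest 10% of probes over the median was 2.96 to 3.07 on spheroid arrays, 3.76 to 4.51 in adherent mouse 2 and 3.63 to 3.80 in adherent mouse 1. The part of proliferation, differentiation, other cells or array brightness in the repair gene differences was not tested.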

How the data were processed

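Per the file headers, the authors deposited mean bead intensity on a linear scale beside a detection p-value for each value, and a series matrix of normalized intensities whose method is not given in the sources used here. Scanner and software are likewise not given. The first table (45135 probes, 12 arrays) went through neqc of limma 3.58.1 (R 4.3.3), which estimated background from those detection p-values, removed it, added an offset of 16 and quantile-normalized log2 values. Probes were kept when all 3 replicate arrays of some culture detected them at p under 0.05 (18950 probes). Gene names came from the platform annotation: 34773 probes had 1 symbol, 18 several and 10344 none; 34695 matched through Entrez identifiers and 0 symbols changed. Probes with several symbols named no gene. Each gene took its brightest passing probe over the 9 replicate arrays, leaving 10112 genes. lmFit with a mean per culture and eBayes with an intensity trend were run on the 9 arrays, without the pools. The log2 differences include the offset. The number of arrays limits the precision.

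The genes and lists were chosen with earlier results of these data known. All 33 genes are accounted for; values per array are given for the called genes with the largest and smallest difference in each role, and for some others chosen after their values were seen. Genes of the wider lists are named when among the 3 largest called. Alternatives changed the background correction, normalization, table, filter, probe rule, fold, trend and arrays. 0 columns were unused as belonging to other samples. Promoters were RefSeq windows matched by symbol for 30 of the 33 genes.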

Additional observations from a re-analysis of the deposited data

How the results depend on the processing

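Against the adherent average, the count of repair genes called lower was 15 in the reported fit, 6 without background correction and 7 with the authors' normalized values. Against adherent mouse 1 it was 15, with 6 and 8 under the same settings, and against adherent mouse 2 it was 16, with 6 and 7. All-gene counts moved along with them, to 592 lower and 690 higher without background correction and 693 lower and 782 higher with the authors' values; both settings keep the background in the signal or leave its treatment unknown, and the cause was not tested. Between the adherent cultures the count was 0, and 1 at a fold of 1.5 (Atm at -0.60), where 391 of all genes were lower and 401 higher. The other settings gave 11 to 21 genes against the adherent average: 11 with an offset of 50 (943 lower and 1010 higher in all), 11 with detection on all 9 arrays, 14 with cyclic loess, 17 with median scaling and 21 at a fold of 1.5. The higher count was 0 in all of them. Median scaling moved the median of all genes to -0.35 and that of the repair genes to -1.48. A fold of 1.5 gave 2484 lower and 2160 higher genes in all, and cyclic loess 1058 lower and 1465 higher. Leaving out each replicate array gave 14 to 16 genes against the average, 15 to 16 against adherent mouse 1, 15 to 17 against adherent mouse 2 and 0 between the adherent cultures. The pools, an alternative chosen after seeing the data and without a test, gave 18.

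Of the 15 called genes, 6 kept the call in every setting run (Rad54l, Blm, Msh6, Ung, Parp1 and Xrcc6). Signs reversed for uncalled genes: Bard1 was 0.0064 with the authors' values and ran from -0.35 to 0.16 when single arrays were left out (0.157 without spheroid replicate 3). In the same way Lig4 ran from -0.49 to 0.041 (0.0413 without spheroid replicate 1) and Atr from -0.076 to 0.29 (-0.0759 without spheroid replicate 2).

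With the replicate number as a block, for spheroid against adherent mouse 1, 15 repair genes were called, as without it. The numbers did not pair the arrays: deviations of same-numbered arrays correlated at 0.0282, -0.04 and 0.0698 over genes. The labels do not give the numbers of arrays a and b of adherent mouse 2, so no such fit was made there.

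Of the 28 genes, 9 averaged under 6 log2 in adherent cells, on a scale that ends at 4, which bounds how far they can fall. The part this played in the missing calls was not tested.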
